A study of Homo sapiens with 54 samples.

Results

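The actin cytoskeleton and contractile genes described here are 47 genes named in a list, and they code for actin itself and for the proteins that build, cap, bundle, pull on and anchor actin filaments. They were followed in H4 cells, a human line that the labels call glioneuronal, at 48 h after transfection with 1 of 9 small RNAs. Of the 47 genes, 42 had a probe set carrying 1 gene symbol on the array, and 38 of those remained among the 11050 genes tested after a filter on low values. In the whole series 18417 genes had such a probe set.

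The series holds 54 Affymetrix Human Gene 1.0 ST arrays in 18 groups of 3 biological replicates. For each transfection, RNA was measured in the total lysate and in an anti-Argonaute immunoprecipitate (IP), which recovers messages held by the protein that carries microRNAs. Of the 9 transfected RNAs, miR-16, miR-195, miR-107 and miR-103 belong to a microRNA group with related seeds. The others were miR-320, miR-15b*, a negative control from Ambion and a pair of altered molecules with no natural counterpart, miR-107-mut1 and miR-107-mut2. All groups share the H4 line, so the data describe 1 line that received transfected mimics. Sample titles give miR-15b where the series' design has miR-15b*, the name used here.

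Actin filaments grow by adding actin monomers, which profilin delivers and which cofilin and gelsolin release again from older filaments. Tropomyosins and calponins coat the filaments, non-muscle myosin II pulls on them, and alpha-actinin, talin, vinculin and zyxin join them into bundles and link them to sites of adhesion. Many of these genes are known targets of the transcription factor SRF, which is activated when free actin monomers become scarce.

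The mature sequences show how the transfected microRNAs divide into pairs, which is the comparison that the results turn on. They are RefSeq sequences (GRCh38.p14) written 5′ to 3′, with the seed (bases 2 to 8, which select targets) in capitals.
miR-103: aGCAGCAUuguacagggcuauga
miR-107: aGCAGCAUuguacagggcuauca
miR-16: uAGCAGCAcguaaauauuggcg
miR-195: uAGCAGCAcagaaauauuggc
miR-15b*: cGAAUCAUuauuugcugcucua
miR-103 and miR-107 share the seed GCAGCAU and are identical at 22 of 23 positions. miR-16 and miR-195 share the seed AGCAGCA and are identical at 19 of 21 positions. The run of 7 bases AGCAGCA begins at base 1 of miR-107 and at base 2 of miR-16 and miR-195, so the seeds of the pairs are offset by a single base. The sequences of the altered molecules, of miR-320 and of the negative control were not used here.

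Some members have limits of measurement that apply throughout. No probe set with 1 symbol represented WDR1, ACTR2, TPM3 or FLNA, and the probe set of EZR also matched ROS1. TAGLN, TPM2, MYLK and DIAPH3 fell below the filter, and their values come from a fit without the filter over 18417 genes. ACTB, ACTG1 and ACTA2 code for related actins, and how far their probe sets read each other is uncertain and was not tested. TPM4 had 2 probe sets, of which the one with the higher mean was used.

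Values are log2 intensities as deposited, and every difference is on that scale. Calls were made with limma where p, adjusted by Benjamini-Hochberg over all genes tested, was under 0.05, and every adjusted p below comes from limma. The median correlation of an array with the other lysates was 0.866 for replicate 2 of miR-15b*, 0.889 for replicate 2 of miR-16 and 0.929 for replicate 2 of miR-103, and between 0.950 and 0.972 for the other lysates. One of these 3 arrays held the lowest of the 27 lysate values for 17 of the 38 members and the highest for 15. The radixin gene RDX, for a membrane linker, read 5.70 in that miR-15b* array, 6.33 in that miR-16 array and 7.57 in that miR-103 array, against 8.17 to 9.65 in the other lysates. Among the IP arrays, replicate 1 of miR-15b* had the lowest median correlation, 0.821. Member counts without these arrays are given beside the main ones where they differ. Shares over all genes are not given for those fits, so such counts cannot be read against a background.

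Against the negative control, 21 of the 38 tested members were called in at least 1 of the 8 lysate comparisons and 17 in none. With miR-16, 13 members rose and 1 fell, where 9.56% of all genes tested were called higher and 7.45% lower. With miR-195, 12 rose and 2 fell, where 6.82% of all genes were called higher and 7.22% lower. The median change over the 38 members was 0.18 with miR-16 and 0.26 with miR-195, beside 0.05 and 0.01 over all genes tested. In bulk RNA of this kind, fewer cells carrying a message and less of it per cell cannot be told apart.

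With miR-103, 6 members rose and 1 fell, where 8.37% of all genes were called higher and 8.88% lower. With miR-107, 6 rose and 1 fell, beside 6.51% higher and 8.35% lower among all genes. The member medians were 0.06 with miR-103 and 0.16 with miR-107, beside 0.03 and 0.01 over all genes. Of the 13 members that rose with miR-16 and the 12 that rose with miR-195, 11 were the same genes, and the 6 that rose with miR-103 were the 6 that rose with miR-107. All these comparisons share the same 3 control arrays.

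Among the other transfections miR-107-mut2 had the most calls on members. With miR-107-mut2, 5 rose and 2 fell (6.23% and 7.58% of all genes). With miR-107-mut1, 2 rose and 1 fell (3.33% and 5.44%), and with miR-15b*, 1 rose and 2 fell (3.5% and 4.04%). With miR-320, 1 rose and 1 fell (1.46% and 1.5%). No called member's arrays overlapped those of the control. Calls on 3 against 3 arrays tend to pick such genes, and the share over all called genes is not given, so this adds no support. The map of changes shows rises with miR-16 and miR-195 in each of the 6 roles, with CAPZB the only member of the nucleation and capping group that rose.

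**Figure D1:**
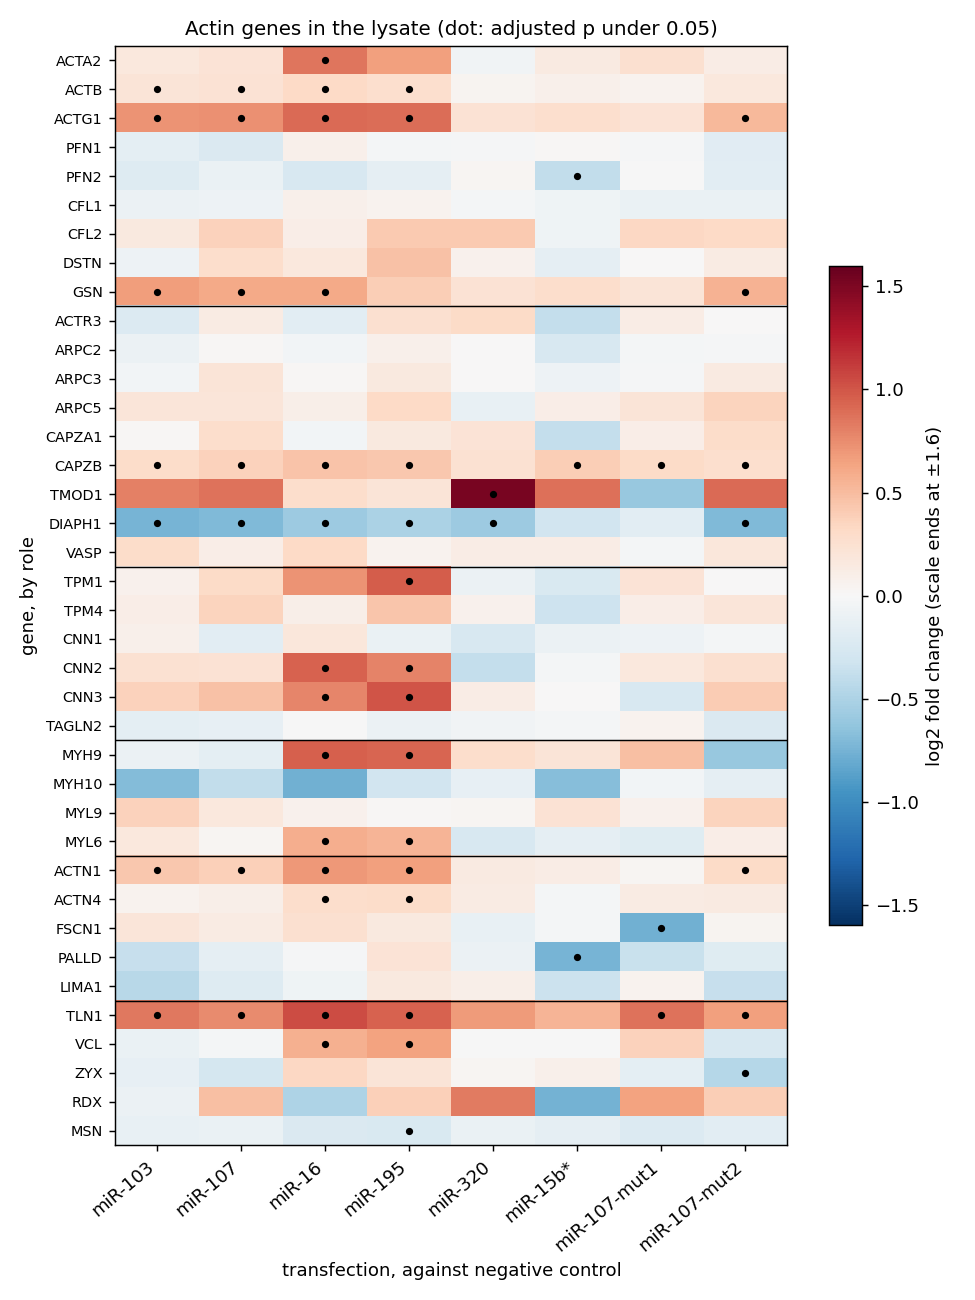
Change of each of the 38 tested actin genes (rows, grouped by role between black lines) in the lysate of 8 transfections against the negative control (columns), as a log2 difference of 3 against 3 arrays, with red for higher and blue for lower. Dots mark calls at an adjusted p under 0.05, of which miR-16 had 13 higher and 1 lower, and miR-103 and miR-107 each 6 higher and 1 lower.

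Without the 3 lysate arrays that stand apart, 14 members rose and 3 fell with miR-16, and 15 rose and 3 fell with miR-195. On the same arrays 7 rose and 4 fell with miR-103, 8 rose and 4 fell with miR-107, and 10 rose and 6 fell with miR-107-mut2. The further counts were 4 and 3 with miR-107-mut1, 2 and 1 with miR-15b*, and 4 and 2 with miR-320. Without shares over all genes for this fit, the larger counts do not show a larger change of the members. MYH10, the gene of a second non-muscle myosin II heavy chain, was not called in the fit of all 27 arrays (with miR-16 -0.77 ± 0.27 (SE), adjusted p = 0.0545). It fell by 0.44 with miR-16 (adjusted p = 0.00423) and by 0.39 with miR-107 (adjusted p = 0.00326) once the 3 arrays were left out.

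Among the actins, ACTG1, which codes for cytoplasmic gamma-actin, was higher with both pairs of microRNAs. Its control lysates read 12.69, 12.57 and 12.77. Its values were 13.64, 13.61 and 13.51 with miR-16, and 13.60, 13.55 and 13.56 with miR-195. They were 13.28, 13.50 and 13.41 with miR-103, and 13.46, 13.38 and 13.39 with miR-107. Every array of the 4 microRNAs lay above every control array. ACTG1 rose by 0.91 ± 0.10 (SE) with miR-16 (adjusted p = 1.64e-06), by 0.89 with miR-195, by 0.72 with miR-103 and by 0.73 with miR-107, and by 0.52 with miR-107-mut2 (adjusted p = 0.00107).

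ACTB, the gene of cytoplasmic beta-actin that is often used as a reference message, moved little. Its control arrays read 13.81, 13.81 and 13.77, and its miR-16 arrays 14.11, 14.15 and 14.08. The miR-195 arrays read 14.02, 14.11 and 14.07, the miR-103 arrays 13.99, 14.05 and 13.99, and the miR-107 arrays 14.06, 14.01 and 14.02. All 4 groups were above the control without overlap, at differences of 0.32 ± 0.07 (SE) with miR-16 (adjusted p = 0.00214), 0.27 with miR-195, 0.21 with miR-103 and 0.23 with miR-107. The calls with miR-103 and miR-107 were lost when any 1 of their 6 arrays was left out (highest adjusted p = 0.125 and 0.0852), and the call with miR-195 without its replicate 2 (adjusted p = 0.0501).

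ACTA2, the gene of smooth muscle alpha-actin, read 9.94, 9.56 and 9.35 in the control and 10.48, 10.93 and 9.99 with miR-16. It rose by 0.85 ± 0.24 (SE) with miR-16 (adjusted p = 0.0141), and the call was lost without miR-16 replicate 2, control replicate 2 or control replicate 3 (highest adjusted p = 0.111). With miR-195 the arrays read 10.28, 10.58 and 9.96, a difference of 0.66 that was not called (adjusted p = 0.0674). The values of miR-16 and control did not overlap, although their nearest arrays were only 9.99 and 9.94.

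Gelsolin, coded by GSN, severs and caps filaments. Its control arrays read 10.25, 9.72 and 10.13, its miR-103 arrays 10.65, 10.91 and 10.55, its miR-107 arrays 10.88, 10.45 and 10.59, and its miR-16 arrays 10.83, 10.79 and 10.32. It rose by 0.67 ± 0.16 (SE) with miR-103 (adjusted p = 0.00643), by 0.60 with miR-107, by 0.61 with miR-16 and by 0.56 with miR-107-mut2. All of these arrays were above the control arrays, but each of the 4 calls was lost without control replicate 2, the lowest of the 3 control arrays (adjusted p up to 0.175). The miR-107 and miR-107-mut2 calls were also lost without replicate 1 of those groups, that of miR-107-mut2 without its replicate 3, and that of miR-16 without its replicate 1 or 2.

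The remaining monomer partners were called nowhere or once. PFN2, a profilin, fell by 0.39 with miR-15b* (adjusted p = 0.0302), a call lost without replicate 2 of miR-15b* or any control array (highest adjusted p = 0.186). PFN1, CFL1, CFL2 and DSTN, coding for profilin 1, the cofilins and destrin, were not called in any of the 8 comparisons.

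In the group that starts, extends and caps filaments, CAPZB and DIAPH1 were called most often. CAPZB codes for the beta subunit of the protein that caps the fast-growing filament end. It read 11.77, 11.67 and 11.84 in the control. Its miR-16 arrays read 12.27, 12.23 and 12.13, and its miR-195 arrays 12.20, 12.12 and 12.26. It read 11.97, 12.15 and 12.04 with miR-103, and 12.11, 12.12 and 12.16 with miR-107. All 7 transfections other than miR-320 were called higher for CAPZB, from 0.27 with miR-107-mut2 to 0.45 ± 0.08 (SE) with miR-16 (adjusted p = 0.000275). The calls with miR-103, miR-107-mut1 and miR-107-mut2 were lost without control replicate 2 (adjusted p up to 0.135). They were also lost without miR-103 replicate 2, without miR-107-mut1 replicate 3, and, for miR-107-mut2, without its replicate 1 or 3 or control replicate 1.

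DIAPH1, a formin that extends unbranched filaments, moved the other way. Its control arrays read 9.75, 9.91 and 9.69. It read 9.09, 8.83 and 9.19 with miR-103, and 9.11, 9.02 and 9.11 with miR-107. It read 9.21, 9.09 and 9.32 with miR-16, and 9.32, 9.21 and 9.29 with miR-195. None of these reached the lowest control array. DIAPH1 fell by 0.75 with miR-103 (SE 0.12, adjusted p = 6.12e-05), by 0.70 with miR-107, by 0.58 with miR-16, by 0.51 with miR-195, by 0.59 with miR-320 and by 0.71 with miR-107-mut2.

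The related formin DIAPH3 lay below the filter and is given from the fit without it. Its control arrays read 6.92, 7.62 and 7.26, and its miR-103 arrays 5.79, 5.86 and 6.07. In that fit it fell by 1.36 with miR-103 (adjusted p = 2.08e-05, where 7.8% of 18417 genes were called lower), by 1.07 with miR-107, by 1.20 with miR-16, by 0.90 with miR-195, by 0.72 with miR-15b* and by 1.12 with miR-107-mut2. The Arp2/3 subunit genes ACTR3, ARPC2, ARPC3 and ARPC5, which branch filaments, and CAPZA1 and VASP were not called in the lysate.

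TMOD1 codes for tropomodulin, a cap of the slow-growing filament end, and varied widely between arrays of a group. It read 10.43, 9.52 and 9.96 in the control and 11.70, 11.37 and 11.38 with miR-320. The difference with miR-320 was 1.52 ± 0.40 (SE, adjusted p = 0.0408), and it was not called without any 1 miR-320 array or without control replicate 2 or 3 (highest adjusted p = 0.226).

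**Figure D2:**
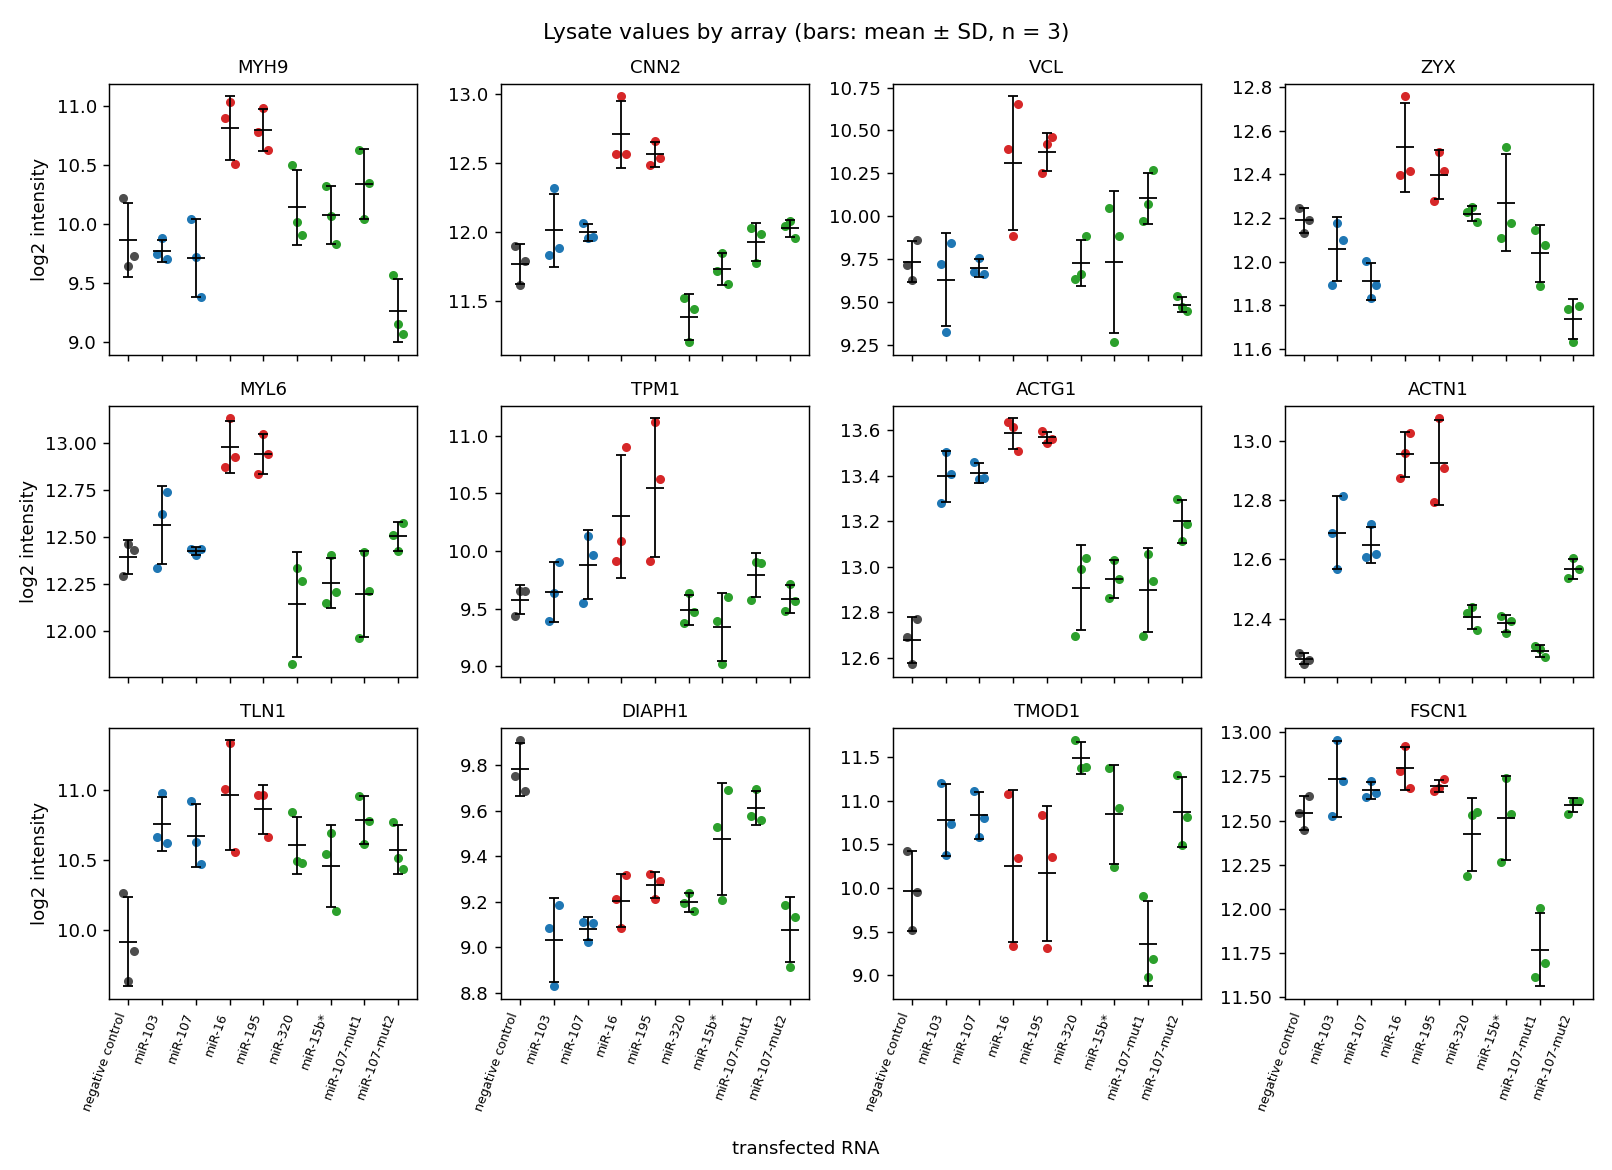
Lysate values of 12 actin genes in every array (points, log2 intensity, each panel with its own axis range), for the negative control (grey), miR-103 and miR-107 (blue), miR-16 and miR-195 (red) and the other 4 RNAs (green), with bars for mean ± SD of 3 arrays. MYH9 is highest in the 6 red arrays except for overlap with miR-107-mut1, ACTG1 lies above the control in blue and red, and DIAPH1 has its highest group mean in the control.

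Of the 6 tested genes for proteins that coat filaments, CNN2, CNN3 and TPM1 were called in the lysate and TPM4, CNN1 and TAGLN2 were not. CNN2, a calponin of non-muscle cells, read 11.90, 11.61 and 11.79 in the control, 12.57, 12.99 and 12.57 with miR-16, and 12.49, 12.66 and 12.54 with miR-195. Its miR-103 arrays read 11.83, 12.32 and 11.89 and its miR-107 arrays 12.07, 11.96 and 11.97. CNN2 rose by 0.94 ± 0.13 (SE) with miR-16 (adjusted p = 2.46e-05) and by 0.80 with miR-195, while the differences with miR-103 (0.25) and miR-107 (0.23) were not called. Against the average of 3 groups (the negative control with miR-15b* and miR-320), CNN2 was called with both (0.38, adjusted p = 0.0171, and 0.37, adjusted p = 0.0204). In that average miR-320 had the lowest CNN2 mean of the 9 lysate groups.

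CNN3, the acidic calponin, read 10.44, 10.53 and 10.67 in the control, 11.19, 11.06 and 11.72 with miR-16, and 11.11, 11.86 and 11.69 with miR-195. It read 10.97, 10.71 and 11.08 with miR-103, and 10.80, 11.09 and 11.18 with miR-107. CNN3 rose by 0.78 ± 0.19 (SE) with miR-16 (adjusted p = 0.00666) and by 1.00 with miR-195. No array of the 4 microRNAs fell within the control range.

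TPM1, a tropomyosin, read 9.43, 9.65 and 9.65 in the control and 9.91, 11.12 and 10.62 with miR-195. Its miR-16 arrays read 9.91, 10.09 and 10.91. TPM1 rose by 0.97 ± 0.25 (SE) with miR-195 (adjusted p = 0.0102), a call lost without miR-195 replicate 2 (adjusted p = 0.107). With miR-16 the difference of 0.72 was not called (adjusted p = 0.0531). TPM1 with miR-16 was called against the average of the negative control, miR-15b* and miR-320 (0.83, adjusted p = 0.00635). In that average miR-15b* had the lowest TPM1 mean of the 9 lysate groups.

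TAGLN codes for transgelin (SM22), an actin-binding protein of smooth muscle, and lay below the filter on the mean over both fractions. Its lysates read 6.83, 6.91 and 6.92 in the control, 7.68, 9.41 and 7.95 with miR-16, and 7.65, 8.80 and 8.28 with miR-195. Without the filter it rose by 1.46 ± 0.31 (SE) with miR-16 (adjusted p = 0.00258) and by 1.36 with miR-195 (adjusted p = 0.00500), where 6.5% and 4.76% of 18417 genes were called higher. The 6 arrays lay above all 3 controls, and the highest was replicate 2 of miR-16. TPM2 was not called in that fit.

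Among the myosin genes, MYH9, the heavy chain of non-muscle myosin IIA, gave the clearest division. Its control arrays read 10.22, 9.64 and 9.73. It read 10.90, 11.04 and 10.51 with miR-16 and 10.78, 10.99 and 10.63 with miR-195. It read 9.74, 9.88 and 9.70 with miR-103 and 10.04, 9.72 and 9.38 with miR-107. The arrays of miR-16 and miR-195 were above the control and above miR-103 and miR-107 without overlap. MYH9 rose by 0.95 ± 0.21 (SE) with miR-16 (adjusted p = 0.00247) and by 0.94 with miR-195 (adjusted p = 0.00289), and was not called with miR-103 or miR-107.

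MYL6, a myosin light chain, read 12.29, 12.46 and 12.43 in the control, 12.87, 13.13 and 12.92 with miR-16, and 12.83, 13.05 and 12.94 with miR-195. It read 12.34, 12.62 and 12.74 with miR-103, and 12.44, 12.40 and 12.44 with miR-107. It rose by 0.58 ± 0.13 (SE) with miR-16 (adjusted p = 0.00382) and by 0.55 with miR-195. MYL9, the regulatory light chain, was not called. MYLK, the kinase that activates myosin II through that chain, read 6.74, 6.73 and 6.76 in the control and 7.09, 7.82 and 7.46 with miR-195, and without the filter rose by 0.71 with miR-195 (adjusted p = 0.00120). With miR-16 its difference of 0.39 was not called (adjusted p = 0.0750).

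ACTN1 and ACTN4 code for the alpha-actinins, which crosslink filaments. ACTN1 read 12.28, 12.25 and 12.26 in the control, 12.88, 12.96 and 13.03 with miR-16, and 12.79, 13.08 and 12.91 with miR-195. It read 12.69, 12.57 and 12.81 with miR-103, and 12.61, 12.72 and 12.62 with miR-107. The control arrays differed by little and every array of the 4 microRNAs was above them. ACTN1 rose by 0.69 ± 0.08 (SE) with miR-16 (adjusted p = 2.77e-06), by 0.66 with miR-195, by 0.43 with miR-103, by 0.38 with miR-107 and by 0.30 with miR-107-mut2, the last lost without miR-107-mut2 replicate 2 or control replicate 2 (highest adjusted p = 0.0579).

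ACTN4 read 13.08, 13.06 and 13.05 in the control, 13.31, 13.37 and 13.35 with miR-16, and 13.30, 13.44 and 13.34 with miR-195. It read 13.14, 13.12 and 13.09 with miR-103, and 13.13, 13.23 and 13.11 with miR-107. ACTN4 rose by 0.28 ± 0.07 (SE) with miR-16 (adjusted p = 0.0111) and by 0.30 with miR-195, the latter lost without miR-195 replicate 2 (adjusted p = 0.0608). PALLD, coding for palladin, fell by 0.74 with miR-15b* (adjusted p = 0.00513), and LIMA1 was not called.

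At sites of adhesion, TLN1 codes for talin, which couples integrins to actin. It read 10.26, 9.64 and 9.86 in the control, 11.01, 11.34 and 10.56 with miR-16, and 10.97, 10.96 and 10.66 with miR-195. It read 10.67, 10.98 and 10.63 with miR-103, and 10.92, 10.63 and 10.48 with miR-107. These 12 arrays were all above the control. TLN1 rose by 1.05 ± 0.20 (SE) with miR-16 (adjusted p = 0.000542), by 0.94 with miR-195, by 0.84 with miR-103, by 0.76 with miR-107, by 0.87 with miR-107-mut1 and by 0.66 with miR-107-mut2. The miR-107 call was lost without miR-107 replicate 1 or control replicate 2, and the miR-107-mut2 call without its replicate 1 or 2 or control replicate 2 or 3 (highest adjusted p = 0.0703 and 0.153).

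VCL, coding for vinculin, which binds talin under tension, read 9.71, 9.63 and 9.86 in the control, 10.39, 9.88 and 10.65 with miR-16, and 10.25, 10.42 and 10.46 with miR-195. It read 9.72, 9.33 and 9.84 with miR-103, and 9.67, 9.76 and 9.66 with miR-107. VCL rose by 0.57 ± 0.18 (SE) with miR-16 (adjusted p = 0.0306) and by 0.64 with miR-195 (adjusted p = 0.0176). Both calls were lost without control replicate 1 or 2, that of miR-16 also without its replicate 1 or 3, and that of miR-195 without its replicate 2 or 3 (highest adjusted p = 0.122 and 0.0787).

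ZYX, coding for the adhesion protein zyxin, fell by 0.45 with miR-107-mut2 (adjusted p = 0.00991), a call lost without replicate 2 of miR-107-mut2 (adjusted p = 0.0615). MSN, coding for the membrane linker moesin, fell by 0.24 with miR-195 (adjusted p = 0.0416), a call lost without miR-195 replicate 1 or 3 or any control array (highest adjusted p = 0.157). RDX was not called.

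The negative control had the lowest mean of the 9 lysate groups for ACTB, ACTG1, GSN, CAPZB, ACTN1, TLN1 and MYL9, and the highest for DIAPH1, MYH10 and MSN. The comparisons were therefore repeated against an average of 3 groups, the negative control with miR-15b* and miR-320. The added groups had calls on members of their own. CAPZB was higher and PALLD and PFN2 lower with miR-15b*, and TMOD1 was higher and DIAPH1 lower with miR-320. For these genes a call lost or gained follows in part from the reference. ACTG1 and ACTN1 were still called with miR-16, miR-195, both miR-103 and miR-107, and miR-107-mut2, and ACTB with the first 4. CAPZB and TLN1 were then called only with miR-16 and miR-195 (CAPZB 0.24 and 0.23, TLN1 0.64 and 0.54), and TLN1 was not called with miR-103 (0.43, adjusted p = 0.0729). DIAPH1 was still called with miR-107-mut2, miR-103, miR-107 and miR-16 but not with miR-195 (-0.21, adjusted p = 0.147), and GSN not with miR-107-mut2 (0.38, adjusted p = 0.0604). MSN with miR-195 was not called either (-0.16, adjusted p = 0.0988).

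Further calls were made only against that average. With miR-16 these were TPM1 (0.83), ZYX (0.30, adjusted p = 0.0316) and the calponin gene CNN1 (0.30, adjusted p = 0.028), and with miR-195 ACTA2 (0.63, adjusted p = 0.0272) and PALLD (0.49, adjusted p = 0.0115), all higher. CNN2 was higher with miR-103, miR-107 and miR-107-mut2 (0.40, adjusted p = 0.0141). For CNN1 and CNN2 the lowest of the 9 lysate groups was miR-320, and for TPM1 and PALLD it was miR-15b*. Both groups are part of the average, so these added calls also follow in part from the reference. The CNN2 mean was 11.39 with miR-320 and 11.77 in the negative control. ZYX was lower with miR-107 (-0.32, adjusted p = 0.0246), MYH9 with miR-107-mut2 (-0.76, adjusted p = 0.00309) and TMOD1 with miR-107-mut1 (-1.40, adjusted p = 0.0065). For TMOD1 the average includes miR-320, its highest group, with a mean of 11.48. Its mean was 9.97 in the negative control and 9.36 with miR-107-mut1, and that difference was not called.

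The comparison of miR-16 and miR-195 with miR-103 and miR-107 uses no control array. In the lysate 10 of the 38 members were higher with miR-16 and miR-195 and 0 were lower, where 6.47% of all genes tested were called higher and 3.57% lower. The median difference was 0.10 over the members and -0.0027 over all genes. An unadjusted p under 0.05 was reached by 19 members. Without the 3 arrays that stand apart, 14 were higher and 0 lower.

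Among the 38 tested members MYH9 had the largest of the called differences, 1.06 ± 0.15 (SE, adjusted p = 3.81e-05), and the 6 arrays of the first pair lay above the 6 of the second. The other called members without overlap between the pairs included VCL at 0.68 ± 0.13 (adjusted p = 0.000977), CNN2 at 0.63 ± 0.09 (adjusted p = 7.98e-05), ZYX at 0.48 ± 0.08 (adjusted p = 0.000425) and MYL6 at 0.46 ± 0.10 (adjusted p = 0.00211). For ZYX the arrays read 12.40, 12.76 and 12.41 with miR-16 and 12.28, 12.50 and 12.42 with miR-195. They read 11.89, 12.18 and 12.10 with miR-103, and 12.001, 11.83 and 11.89 with miR-107. ACTN4 differed by 0.21 ± 0.05 (SE, adjusted p = 0.0107), also without overlap.

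The ranges of the pairs overlapped for TPM1 (0.66, adjusted p = 0.0187), ACTA2 (0.56, adjusted p = 0.0319), CNN3 (0.47, adjusted p = 0.0292) and ACTN1 (0.27, adjusted p = 0.00306). The ACTA2 call was lost without replicate 1 or 2 of miR-16 or miR-195, replicate 1 or 3 of miR-103, or replicate 2 or 3 of miR-107 (highest adjusted p = 0.101). The CNN3 call was lost without miR-103 replicate 2, miR-107 replicate 1, miR-16 replicate 3 or miR-195 replicate 2 or 3 (highest adjusted p = 0.0995). The TPM1 call was lost without miR-103 or miR-107 replicate 1, miR-16 replicate 3 or miR-195 replicate 2 (highest adjusted p = 0.0685).

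Without the filter, TAGLN was higher by 1.18 (adjusted p = 0.00140) and MYLK by 0.66 (adjusted p = 0.000150) with miR-16 and miR-195, beside 4.33% of 18417 genes called higher. By role, the 10 called members were 3 coating proteins (TPM1, CNN2, CNN3), 2 myosin chains (MYH9, MYL6), 2 crosslinkers (ACTN1, ACTN4), 2 adhesion proteins (VCL, ZYX) and ACTA2. None of the 9 tested genes of nucleation and capping was called. ACTG1 (0.17) and TLN1 (0.20), which rose with both pairs, were not called between them.

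**Figure D3:**
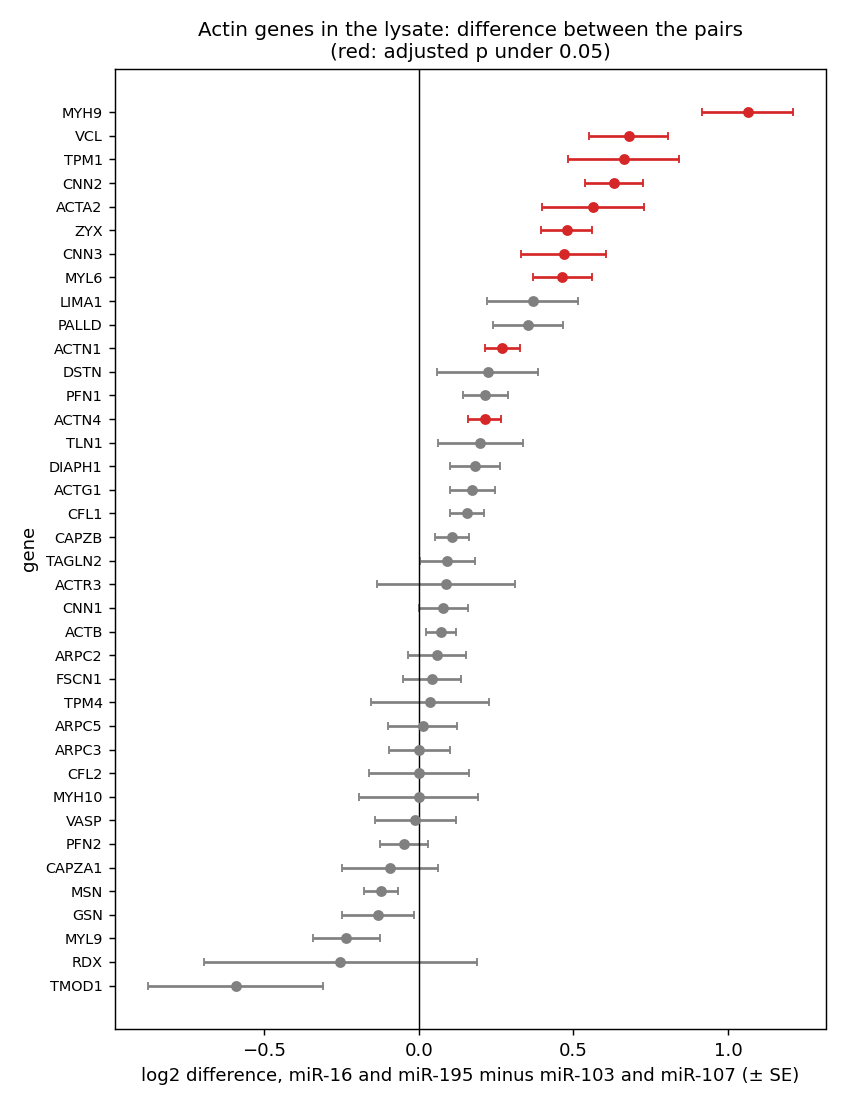
Lysate difference between miR-16 with miR-195 and miR-103 with miR-107 for the 38 tested actin genes (rows, ordered by size), as a log2 difference of 6 against 6 arrays with bars of 1 SE. The 10 called genes (red) all lie to the right of 0, from ACTN4 at 0.21 to MYH9 at 1.06.

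Within the pairs no member was called. Between miR-16 and miR-195, and between miR-103 and miR-107, limma called 0 of the 38 members and 0 of all genes in the lysate, with 1 member at an unadjusted p under 0.05 in each. Among all genes 170 and 382 had such a p.

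Against its altered form miR-107-mut1, miR-107 was higher for 5 members and lower for 2 in the lysate, where 6.96% of all genes were called higher and 6.51% lower. Without the 3 arrays that stand apart the counts were 6 and 5. TMOD1 differed most, with 11.11, 10.58 and 10.80 for miR-107 and 9.91, 8.98 and 9.19 for miR-107-mut1, a difference of 1.47 ± 0.40 (SE, adjusted p = 0.0150). This call was lost without miR-107 replicate 1 or miR-107-mut1 replicate 2 or 3 (highest adjusted p = 0.0772).

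FSCN1 codes for fascin, which bundles filaments in filopodia. It read 12.63, 12.72 and 12.66 with miR-107 and 11.61, 12.01 and 11.69 with miR-107-mut1, a difference of 0.90 ± 0.13 (SE, adjusted p = 3.63e-05). Against the control it fell by 0.77 with miR-107-mut1 (adjusted p = 0.000403), whose 3 arrays were below all 24 other lysates. ACTG1 (0.52), ACTN1 (0.36) and CNN3 (0.72) were higher with miR-107 and DIAPH1 lower (-0.53, adjusted p = 0.00246). The CNN3 call was lost without miR-107 replicate 2 or 3 (highest adjusted p = 0.0655).

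MYH9 was lower with miR-107 than with miR-107-mut1 (-0.63, adjusted p = 0.0484), where the arrays touched at 10.04 in both groups and the call was lost without miR-107 replicate 2 or 3 or miR-107-mut1 replicate 1 or 3 (highest adjusted p = 0.261). In the fit without the filter DIAPH3 was lower by -1.34 (adjusted p = 2.86e-05), with miR-107-mut1 arrays at 7.54, 7.33 and 7.77 and miR-107 arrays at 6.06, 6.29 and 6.25. In that fit 5.14% of genes were called lower. Between miR-107 and miR-107-mut2, 0 members were called by limma, 1 had an unadjusted p under 0.05, and 0.0271% of all genes were called higher and 0.0543% lower. Of all genes tested, 465 had such an unadjusted p.

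In the Argonaute IP, in fits without a replicate block, the calls on members were few and all were falls. With the block more members were called, as given in the last section. With miR-107, 4 members were lower and 0 higher (3.61% and 0.217% of all genes), and with miR-103, 2 were lower and 0 higher (1.79% and 0.235%). Without the IP array of lowest correlation, 7 were lower with miR-107, 3 with miR-103 and 2 with miR-16, 6 were lower with miR-107 than with miR-107-mut1, and 1 was higher with miR-16 and miR-195 than with miR-103 and miR-107. The median change was -0.56 over the members with miR-107 and -0.43 with miR-103, beside -0.19 and -0.09 over all genes tested. With each of the 6 other RNAs limma called 0 members, while 1 to 14 members had an unadjusted p under 0.05. Such a p was reached by 545 (miR-107-mut1) to 1478 (miR-15b*) of all genes tested. Without replicate 3 of the miR-15b* IP, 14 members were called with miR-15b*. Among all genes, 0.136% were called higher and 1.12% lower with miR-16, and 0.0543% and 0.615% with miR-195. The shares were 2.12% and 0.0905% with miR-320, 0.00905% and 0.208% with miR-15b*, 0.579% and 0.163% with miR-107-mut1, and 0.0271% and 0.317% with miR-107-mut2.

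Against its altered forms miR-107 had 0 members called in the IP by limma, with 13 members at an unadjusted p under 0.05 against miR-107-mut1 and 5 against miR-107-mut2. Such a p was reached by 2633 and 991 of all genes tested. Of all genes 0.19% were called higher and 4.86% lower than with miR-107-mut1, and 0.0362% higher and 0% lower than with miR-107-mut2.

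ARPC2, a subunit of the Arp2/3 complex, read 9.31, 8.91 and 9.39 in the control IP, 7.39, 8.23 and 7.79 with miR-103, and 7.51, 7.34 and 8.43 with miR-107. It fell by 1.40 with miR-103 (SE 0.35, adjusted p = 0.0382) and by 1.44 with miR-107 (adjusted p = 0.0238). MYL6 read 8.92, 9.003 and 9.20 in the control IP, 7.60, 7.88 and 8.03 with miR-103, and 7.91, 7.38 and 7.85 with miR-107. It fell by 1.20 with miR-103 (adjusted p = 0.0420) and by 1.33 with miR-107 (adjusted p = 0.0185). The groups did not overlap for either gene.

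CNN2 read 8.31, 7.97 and 8.75 in the control IP, and 6.77, 5.40 and 6.31 with miR-107. It fell by 2.18 with miR-107 (SE 0.56, adjusted p = 0.0311). With miR-103 it read 6.33, 6.86 and 7.01, a difference of -1.61 that was not called (adjusted p = 0.153). MSN read 6.04, 6.95 and 6.70 in the control IP and 5.74, 4.83 and 4.57 with miR-107, and fell by 1.52 (adjusted p = 0.0281).

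These IP calls depended on single arrays. Both miR-103 calls were lost when any 1 of the 6 arrays compared was left out (highest adjusted p = 0.205 for ARPC2 and 0.227 for MYL6). Without miR-107 replicate 2, or without control replicate 3, none of the 4 miR-107 calls remained, and the ARPC2 call also went without miR-107 replicate 1 or control replicate 1, CNN2 without miR-107 replicate 3 or control replicate 1, and MSN without miR-107 replicate 3 or control replicate 2 (adjusted p up to 0.191).

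Another scaling of the IP arrays changed these results. After cyclic loess the median over all genes moved from -0.19 to 0.01 with miR-107, and the member median from -0.56 to -0.03. ARPC2 and MYL6 were then not called (adjusted p from 0.0611 to 0.159). CNN2 still fell with miR-107 (-1.40, adjusted p = 0.00567) and was called with miR-103 (-1.07, adjusted p = 0.0380), and MSN still fell with miR-107 (-1.09, adjusted p = 0.0285). ACTG1, which was not called in the deposited IP values, was called higher after loess with miR-16 (1.39), miR-195 (1.33), miR-107 (0.87) and miR-103 (0.68), and PFN2 lower with miR-16 (-1.22) and miR-103 (-0.98). For ACTG1 the deposited difference with miR-107 was -0.01, so its sign turned under loess.

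**Figure D4:**
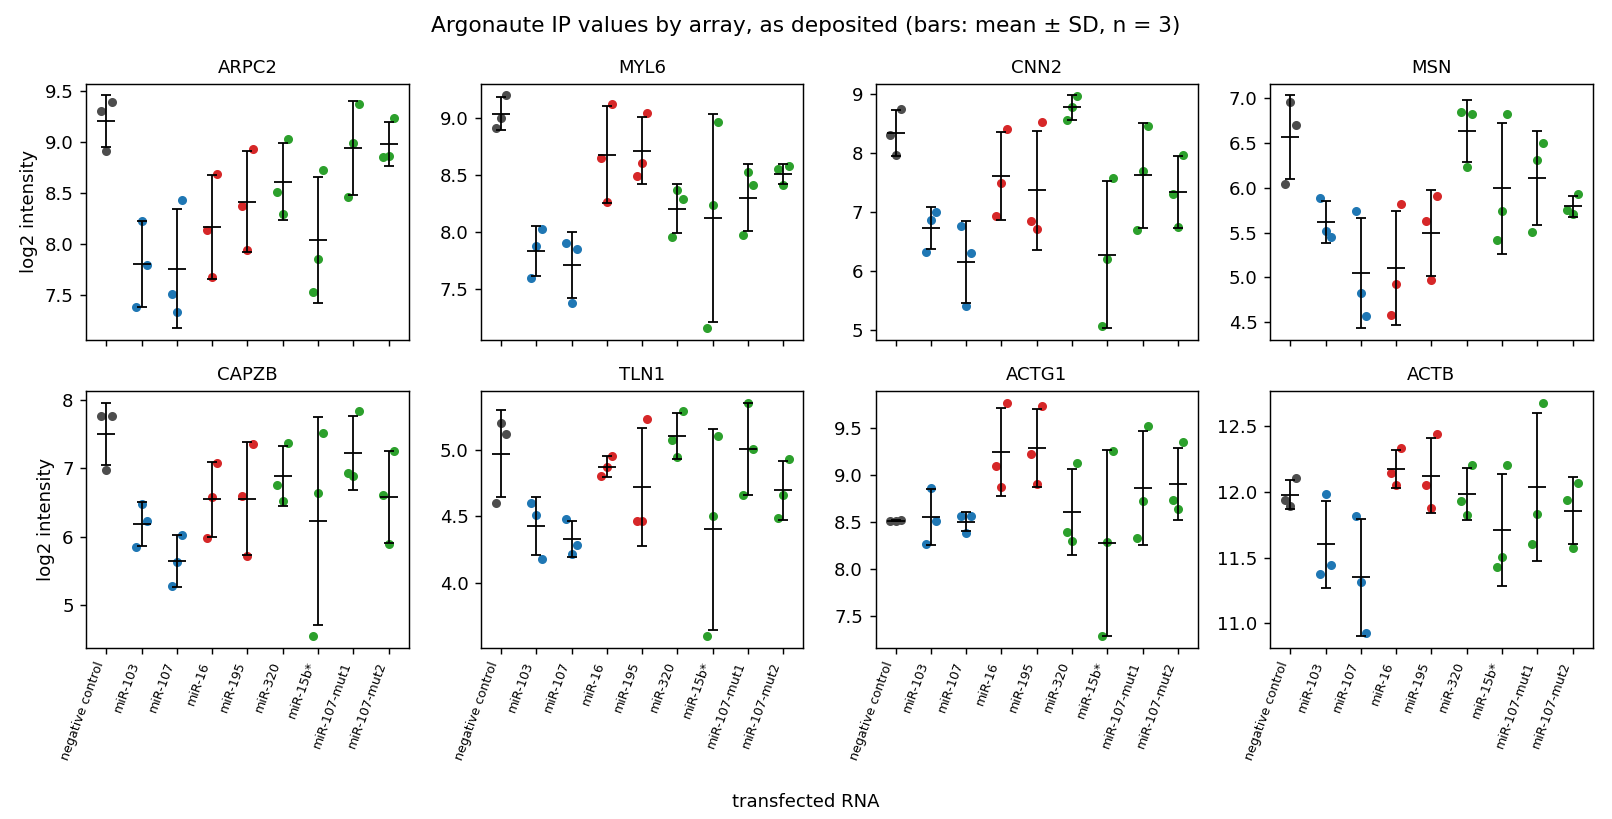
Argonaute IP values of 8 actin genes in every array as deposited (points, log2 intensity, each panel with its own axis range), for the negative control (grey), miR-103 and miR-107 (blue), miR-16 and miR-195 (red) and the other 4 RNAs (green), with bars for mean ± SD of 3 arrays. ARPC2 and MYL6 lie lower with miR-103 and miR-107 than in the control, and single arrays of miR-15b* lie far below the rest of their group.

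Between miR-16 with miR-195 and miR-103 with miR-107, limma called 0 members in the IP, where 7 had an unadjusted p under 0.05, and 0.172% of all genes were called higher and 0.208% lower. Of all genes tested, 702 had such an unadjusted p. After cyclic loess ACTG1 (0.59), CNN2 (0.88) and MYL6 (0.77) were called higher with miR-16 and miR-195. In the control, IP values were below lysate values by a median of -4.78 over the members and -4.20 over all genes, and 13 of 38 members were above the median of all genes. The fractions appear to have been scaled apart, so that offset is not a measure of binding.

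The change in the IP was set against the change in the lysate with an interaction term. An additive offset between the fractions cancels in this term, but a difference in scale does not. The part of such a difference in the terms was not tested. The interaction fit held no replicate block, and with the block more members were called for both pairs. With miR-103 and miR-107, 6 members were lower and 0 higher in this term (4.85% and 1.69% of all genes): CNN2, CAPZB, TLN1, ARPC2, MYL6 and MSN. With miR-16 and miR-195, 1 was lower, TLN1, and 0 higher (2.07% and 0.842% of all genes). The member medians of the term were near each other, -0.54 with miR-103 and miR-107 and -0.51 with miR-16 and miR-195. Over all genes they were -0.14 and -0.10. An unadjusted limma p under 0.05 was reached by 16 and 13 members, and 4 members were above 0 in each. The terms of the pairs were not tested against each other. Without the arrays of lowest correlation, 10 were lower and 1 higher with the first pair, and 6 lower and 1 higher with the second. After cyclic loess ZYX was called higher with miR-103 and miR-107 (0.78, adjusted p = 0.00173), where the deposited values gave -0.08, and CNN2 was called lower with miR-16 and miR-195 (-1.07, adjusted p = 0.0102).

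Without the filter DIAPH3 was higher in the same term, by 1.34 with miR-103 and miR-107 (adjusted p = 0.000112) and by 1.00 with miR-16 and miR-195 (adjusted p = 0.00743), where 2.7% and 1.62% of 18417 genes were called higher and 3.12% and 1.53% lower. Its IP arrays were low in every group, with 2.12, 2.30 and 1.90 in the control and 2.45, 1.95 and 2.14 with miR-103, while its lysates fell. For CNN2, CAPZB and TLN1 the lysate means with miR-103 and miR-107 were above the control mean and the IP means below it. Control IP arrays of CAPZB read 7.76, 6.97 and 7.77, and those of miR-107 5.27, 5.63 and 6.03.

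Windows around transcription starts were searched for the CArG box, the motif bound by SRF, on both strands, which for this motif coincide. The RefSeq promoter table (GRCh38.p14) held 42 of the 47 members, with 69 windows of 300 bases, and 6 members had a match, among them ACTG1, CNN2, TPM4, MYLK and FLNA. The MYLK window (chr3:123620499-123620798, minus strand) is that of a start inside the gene, whose 5′ end lies at 123884332. ACTB, MYL9, TAGLN, PFN2 and FSCN1 were not matched to the table. A match was present in 1.29% of all 35116 windows and in 1.6% of all 27305 genes. Of these matches, those of ACTG1 and CNN2 are shown as the 200 bases before the start, with the box in capitals. A match is a description of the letters in the window.
ACTG1, chr17:81512800-81512999, minus strand: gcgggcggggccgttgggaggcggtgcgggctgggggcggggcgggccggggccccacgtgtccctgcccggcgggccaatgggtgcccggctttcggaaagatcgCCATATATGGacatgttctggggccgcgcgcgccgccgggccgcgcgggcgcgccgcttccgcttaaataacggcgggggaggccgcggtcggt
CNN2, chr19:1026408-1026607, plus strand: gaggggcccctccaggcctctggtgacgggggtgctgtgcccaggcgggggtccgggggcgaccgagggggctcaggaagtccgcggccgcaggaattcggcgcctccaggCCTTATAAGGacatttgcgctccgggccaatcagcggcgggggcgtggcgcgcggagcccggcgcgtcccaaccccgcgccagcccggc
The boxes begin 94 and 89 bases before the start. SRF itself was called higher with miR-16 (0.60, adjusted p = 0.00957) and miR-195 (0.47, adjusted p = 0.0482).

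Lists of related genes were counted in the same fits. Of 17 tested focal adhesion genes, 5 were higher and 0 lower with miR-16 (9.56% and 7.45% of all genes), 4 and 0 with miR-195 (6.82% and 7.22%), and 1 and 0 with each of miR-103 and miR-107. Of 15 tested genes of filament nucleation, 0 were called with miR-16, 2 were higher with miR-195 and 1 with each of miR-103 and miR-107, with 0 lower. Of 18 tested genes for other filament-binding proteins and motors, 1 was higher with miR-16, 4 with miR-195, 1 with miR-103 and 3 with miR-107, and 1 was lower with each. Of 5 tested genes in the list of SRF and its partners, 2 were higher with each of miR-16 and miR-195 and 1 with each of miR-103 and miR-107. Among called genes of the related lists and of the cell type markers that passed the filter, the largest rises with miR-16 were those of ENO2 (1.51), a glycolytic enzyme used as a neuronal marker, CDC42EP3 (1.32), a CDC42 effector, and FHL2 (1.28), a LIM-domain protein, and the largest falls those of ANLN (-2.34) and CIT (-2.13), which act in cytokinesis. With miR-107 the largest were MYO1E (1.03), ENO2 (0.99) and SVIL (0.91) and, among falls, ANLN (-1.98) and CIT (-1.70).

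Markers of cell types were read beside these results. Of 10 glial markers 7 passed the filter (GFAP, VIM, NES, SOX2, CD44, OLIG2 and ALDH1L1), and of 10 neuronal markers 6 did (ENO2, MAP2, NEFL, SYP, RBFOX3 and SNAP25). Of 8 smooth muscle markers DES and SMTN passed it, and of 6 blood markers none did. The mean over the 8 smooth muscle markers was lowest in the control lysate (6.32) and highest with miR-16 (6.81), with 6.66 for miR-195. Without ACTG2 the mean over the other 7 was 6.40 in the control, 6.48 with miR-16 and 6.37 with miR-195, in a range of 6.35 to 6.51 over the 9 groups. The glial mean was also lowest in the control (7.72), with 7.97 for miR-16, 7.94 for miR-195 and 8.13 for miR-103, the highest. The neuronal mean was lowest in the control (6.91) and highest with miR-103 (7.12). The part of these markers in the results was not tested. ACTG2, the smooth muscle gamma-actin in that list, chosen here after its values were seen, read 5.55, 5.63 and 6.03 in the control, 9.01, 9.07 and 9.21 with miR-16, and 8.29, 8.54 and 9.27 with miR-195. Its part in the readings of the other actin probe sets was not tested.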

How the data were processed

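RNA of 27 lysate and 27 IP samples was hybridised to arrays. The deposited log2 values are RMA summaries, and the submitters' processing notes name Expression Console (1.1) as the software. No source used here states the log base, and 2 was assumed because RMA returns that scale. IP values lie far below lysate values, as if each fraction had been normalised by itself. Precision is limited by 3 arrays a group.

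Of 33297 probe sets, the probe table gave 1 symbol to 19460, more to 1754 and no symbol to 12083, and 769 genes with several probe sets were represented by that with the highest mean. A filter removed 7367 genes, those in the lowest 40% (cutoff 5.26). Each fraction was modelled with limma 3.58.1 under R 4.3.3, with 9 groups and no covariate, and all 54 arrays together for interactions. The scripts were tested on simulated data.

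Values in every array are given for at most 15 members: those called in at least 4 lysate comparisons with control, in the lysate contrast of the pairs or in any IP comparison with control, the most often called first. Values of TMOD1, ZYX, FSCN1, MSN, ARPC2, RDX, TAGLN, MYLK, DIAPH3 and ACTG2 were added after they were seen. Of related lists, up to 3 genes each way are named for miR-16 and miR-107. Members and lists were chosen with earlier results of these data known. Alternatives changed the filter, scaling, variance settings, array weights, arrays fitted, control, replicate block and arrays left out. Leaving out the arrays of lowest correlation was chosen after seeing the data. Figures were drawn with matplotlib 3.10.9. One promoter sequence and a related list are not reported here.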

Additional observations from a re-analysis of the deposited data

Results flagged for a closer look

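For 6 members the IP change differed from the lysate change with miR-103 and miR-107 (limma interaction term, negative where the IP fell relative to the lysate). A difference in scale between the fractions does not cancel in this term, and its part was not tested. The terms were -2.13 ± 0.52 (SE) for CNN2 (adjusted p = 0.00680), -1.92 for CAPZB (adjusted p = 0.0101), -1.39 for TLN1 (adjusted p = 0.00235), -1.38 for ARPC2 (adjusted p = 0.00657), -1.37 for MYL6 (adjusted p = 0.00228) and -1.12 for MSN (adjusted p = 0.0412). With miR-16 and miR-195 the term for TLN1 was -1.17 (adjusted p = 0.0208), and that for CNN2 was -1.72 without a call (adjusted p = 0.0591). After cyclic loess over the arrays of both fractions together, CNN2 (-1.30 and, with miR-16 and miR-195, -1.07, adjusted p = 0.0102), CAPZB (-1.11) and TLN1 (-0.92 and, with the latter pair, -0.82) were called. ZYX was called higher with miR-103 and miR-107 (0.78), and ARPC2, MYL6 and MSN were not called. The MSN call was lost without any 1 of 14 of the 18 arrays compared (highest adjusted p = 0.127), and the TLN1 call with miR-16 and miR-195 without replicate 2 or 3 of the control IP or lysate (highest adjusted p = 0.114).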

How the results depend on the processing

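The 87 results on single genes that were called in the main fits were recomputed in 1588 alternatives. Of these 1391 kept the direction and call, 197 lost the call and 0 turned the direction. Because only called results entered, and many alternatives left out 1 array, the absence of turned directions adds no support. Results not called in the main fits could turn, as ACTG1 in the IP with miR-107 did under loess. The numbers that follow are members called of 38, in either direction, where they moved by more than 1.5 times. The cause of these moves was not tested, and no share over all genes is given beside these counts. With array quality weights, whose estimation stopped before its tolerance in some fits, the lysate counts against control were 21 with miR-103, 22 with miR-107, 28 with miR-16, 29 with miR-195, 9 with miR-320, 15 with miR-15b*, 17 with miR-107-mut1 and 25 with miR-107-mut2. They were 23 between the pairs, 22 between miR-16 and miR-195 and 15 between miR-107 and miR-107-mut1. IP counts with weights were 8 with miR-103, 4 with miR-16, 1 with miR-195, 1 with miR-320, 1 between the pairs and 15 against miR-107-mut1, and the interaction counts 16 with miR-103 and miR-107 and 21 with miR-16 and miR-195.

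With a fit of only the arrays compared, lysate counts were 4 with miR-103, 14 with miR-107, 13 with miR-107-mut2, 0 with miR-15b*, 5 with miR-16 and 5 between the pairs. IP counts were 5 with miR-103, 7 with miR-107, 1 against miR-107-mut1 and 1 between the pairs, and the interaction count with miR-103 and miR-107 was 14.

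Arrays of the same replicate number correlated in their deviations by 0.307 on average in the lysate and 0.266 in the IP, with 79 and 84 of 108 pairs above 0.1, and 21 and 25 of 27 arrays closest to their own number. Arrays of different number and transfection correlated by -0.136 in the lysate and -0.133 in the IP. By the same-number values, arrays of a number tended to deviate together, though not in every pair. The 3 lysate arrays of lowest correlation were all replicate 2, and their part in the lysate average of 0.307 was not tested. The main fits held no replicate block, and the interaction took the IP and lysate of a replicate as independent. The main counts leave this structure out. With the replicate block the counts were 6 with miR-107-mut1 and 5 with miR-15b* in the lysate. In the IP the block gave 6 with miR-103, 11 with miR-107, 5 with miR-16, 1 with miR-195, 8 with miR-15b*, 1 between the pairs, 11 against miR-107-mut1 and 1 against miR-107-mut2, and the interactions 16 with miR-103 and miR-107 and 9 with miR-16 and miR-195.

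After cyclic loess the IP counts were 3 with miR-16, 1 with miR-195, 2 with miR-320, 1 with miR-15b* and 3 between the pairs, the lysate count with miR-320 was 4 and the interaction with miR-16 and miR-195 was 2. The IP count with miR-103 was 0 with trend and robust settings, 0 against the average of the negative control, miR-15b* and miR-320, and 0 without the filter. Against that average, IP counts were 2 with miR-107 and 1 with miR-16. The lysate count with miR-320 was 1 without the filter and 4 without the 2 lysate arrays that earlier work set apart. The stricter filter of 60% gave 3 in the IP against miR-107-mut1.

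Without the arrays of lowest correlation, lysate counts were 11 with miR-103, 12 with miR-107, 7 with miR-107-mut1, 16 with miR-107-mut2, 6 with miR-320 and 11 between miR-107 and miR-107-mut1. IP counts were 7 with miR-107, 2 with miR-16, 1 between the pairs and 6 against miR-107-mut1, and the interactions 11 and 7. Leaving out 1 array at a time, lysate counts ran from 4 to 6 with miR-103 and with miR-107, 11 to 16 with miR-16, 10 to 13 with miR-195, 1 to 3 with miR-320, 2 to 5 with miR-15b*, 2 to 3 with miR-107-mut1, 3 to 6 with miR-107-mut2, 7 to 11 between the pairs and 5 to 6 against miR-107-mut1. In the IP they ran from 0 to 0 with miR-103, 0 to 3 with miR-107, 0 to 2 with miR-16, 0 to 14 with miR-15b* and 0 to 4 against miR-107-mut1, and for the interactions from 5 to 8 and 0 to 6. The miR-15b* count of 14 came without its IP replicate 3, and the remaining comparisons stayed at 0.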
